A study of Homo sapiens with 11 samples.

Results

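The miR-130, miR-301 and miR-454 family was followed here through its 7 members hsa-miR-130a-3p, hsa-miR-130b-3p, hsa-miR-130b-5p, hsa-miR-301a-3p, hsa-miR-301b, hsa-miR-454-3p and hsa-miR-454-5p, of 2576 miRNAs counted in the series. The members were selected on these same data, for an opposite response to hydrogen peroxide (H2O2) in its 2 experiments, so their levels and differences are given as a description, without a test. Small RNA was sequenced from SH-SY5Y, a human neuroblastoma cell line derived from the line SK-N-SH, which all-trans retinoic acid (ATRA) drives towards a neuron-like state. All 11 libraries came from cells that received ATRA for 7 days, and H2O2 was used at 10 µM to impose oxidative stress. In co-treatment, 3 cultures had H2O2 together with ATRA for 7 days, beside 3 control cultures with ATRA and no H2O2. In pre-treatment, 3 cultures had H2O2 for 72 hours and then, after its removal, ATRA for 7 days, beside 2 control cultures with ATRA and no H2O2. The comparisons ask how oxidative stress during or before differentiation alters miRNA levels, in 1 cell line and in bulk cultures, where fewer cells of a type and less RNA per cell cannot be told apart.

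A miRNA hairpin is cut to a short duplex whose strands are the 5p and 3p arms, and the arm that is loaded into an Argonaute protein pairs through its seed, bases 2 to 8, with sites in target mRNAs. The 3p arms of this family share 1 seed and so share predicted targets, among them components of TGF-beta and BMP signalling, and the family is known from studies of cell proliferation, hypoxia and vessel growth. The 5p arms carry other seeds.

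The mature sequences show what the members share and where they part. RefSeq (GRCh38.p14) gave a mature sequence for 6 of the 7 members, printed 5′ to 3′ with bases 2 to 8 in capitals, and hsa-miR-130a-3p is given by name. The first 4 lines are 3p arms with the seed AGUGCAA and the last 2 are 5p arms.
hsa-miR-130b-3p: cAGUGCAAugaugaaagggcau
hsa-miR-301a-3p: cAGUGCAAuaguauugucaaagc
hsa-miR-301b: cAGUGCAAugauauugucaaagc
hsa-miR-454-3p: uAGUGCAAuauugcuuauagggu
hsa-miR-130b-5p: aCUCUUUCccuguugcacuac
hsa-miR-454-5p: aCCCUAUCaauauugucucugc

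Counted from 1 at the 5′ end, hsa-miR-301a-3p and hsa-miR-301b differed at 2 of 23 positions, A10G and G11A. Reads that stop short or carry errors there could be assigned to either, so the split between this pair is uncertain. hsa-miR-130b-3p and hsa-miR-301b had their first 12 bases in common, and hsa-miR-454-3p alone of the 4 began with another base, written C1U from hsa-miR-301a-3p. The seeds of the 5p arms were CUCUUUC in hsa-miR-130b-5p and CCCUAUC in hsa-miR-454-5p. RefSeq held 2 further mature miRNAs with the seed AGUGCAA, hsa-miR-3666 and hsa-miR-4295. Both had 0 counts in all 11 libraries, so the counted reads with this seed came from the 3p members, as far as RefSeq gives sequences. A count of 0 allows up to 3 counts per library.

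In the GENCODE annotation of GRCh37, the build of the count files, MIR301A (chr17:57228497-57228582) and MIR454 (chr17:57215119-57215233) lie on the minus strand within introns of SKA2 (chr17:57187218-57232621), which encodes a subunit of the kinetochore. MIR130A (chr11:57408671-57408759, plus strand) lies in an intron of the long non-coding RNA gene MIR130AHG. MIR301B (chr22:22007270-22007347, plus strand) lies in an intron of a long non-coding RNA gene (ENSG00000207751). The members thus came from hairpins on at least 3 chromosomes.

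The libraries held 5343953 to 8927582 counts, and the members had between 636 and 61383 counts in each library, so that all 7 passed the filter on low counts in both experiments. Levels are in CPM (counts scaled to a common library size), adjusted by the trimmed mean of M-values (TMM) over all 11 libraries. Fold changes within an experiment used the factors of that experiment, so they need not match the ratio of the levels. Among miRNAs known from neurons, hsa-miR-128-3p (1044 to 2048 CPM) and hsa-miR-7-5p (228 to 722 CPM) were abundant, whereas hsa-miR-124-3p had at most 7 counts and hsa-miR-9-5p at most 6.69 CPM. The summed level of 6 such miRNAs was 2085 to 2929 CPM in controls and 2011 to 2138 CPM with H2O2 in co-treatment, and 1316 to 1851 and 2308 to 2802 CPM in pre-treatment. Control 1 of pre-treatment stood apart, with 131 CPM of the epithelial hsa-miR-205-5p (at most 5.08 in any other library) and 70.3 CPM of the myeloid hsa-miR-223-3p (at most 4.54). The summed level of 5 white blood cell miRNAs was 110 CPM in this library and 13.5 CPM in control 2, and that of 6 epithelial ones 171 and 42.3 CPM. hsa-miR-205-5p made up most of the epithelial sum, and the other 5 had 1.43 to 23.2 CPM in control 1, each with a higher level in another library. hsa-miR-223-3p made up most of the white blood cell sum. hsa-miR-142-3p (23.7 CPM) and hsa-miR-142-5p (11.1 CPM) were also highest in control 1. hsa-miR-150-5p (4.30 CPM) and hsa-miR-155-5p (0.39 CPM) each had a higher level in another library. The summed level of 4 red blood cell miRNAs was 1.95 to 3.59 CPM in controls and 10.2 to 15.5 CPM in H2O2 libraries of pre-treatment, that of hsa-miR-122-5p, the miRNA of liver, 89.7 to 245 and 540 to 858 CPM, and that of 3 muscle miRNAs 1.43 to 4.02 and 6.12 to 6.79 CPM. In co-treatment the white blood cell sum was 18.5 to 22.8 CPM in controls and 9.82 to 16.9 CPM with H2O2, the epithelial sum 50.8 to 55.7 and 41.5 to 45.9 CPM, and the muscle sum 6.01 to 7.12 and 3.56 to 5.84 CPM, all without overlap. The red blood cell sum and hsa-miR-122-5p overlapped there, at 4.37 to 7.68 against 5.93 to 9.73 CPM and 142 to 312 against 208 to 528 CPM. No listed marker in the files was at 0 in all 11 libraries. The part of these differences in the results was not tested.

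The summed level of the 3p members was highest in co-treatment controls and lowest in pre-treatment controls, with both H2O2 groups between them. It was 16533, 14592 and 21302 CPM in co-treatment controls and 9320, 9174 and 8472 CPM after H2O2. In pre-treatment it was 5850.0 and 6834 CPM in controls and 11947, 11849 and 13425 CPM after H2O2. The 4 ranges did not overlap. In group means the order was 17475 ± 3453 (SD, n = 3) in co-treatment controls, 12407 ± 883 (SD, n = 3) in pre-treatment H2O2, 8989 ± 453 (SD, n = 3) in co-treatment H2O2 and 6342 ± 696 (SD, n = 2) in pre-treatment controls. The largest gap lay between the 2 control groups, which both had ATRA and no H2O2, at 2.76-fold, against 1.38-fold between the 2 H2O2 groups. Experiment and any batch of culture, library or sequencing that goes with it cannot be told apart, so levels across experiments are set side by side only.

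**Figure D1:**
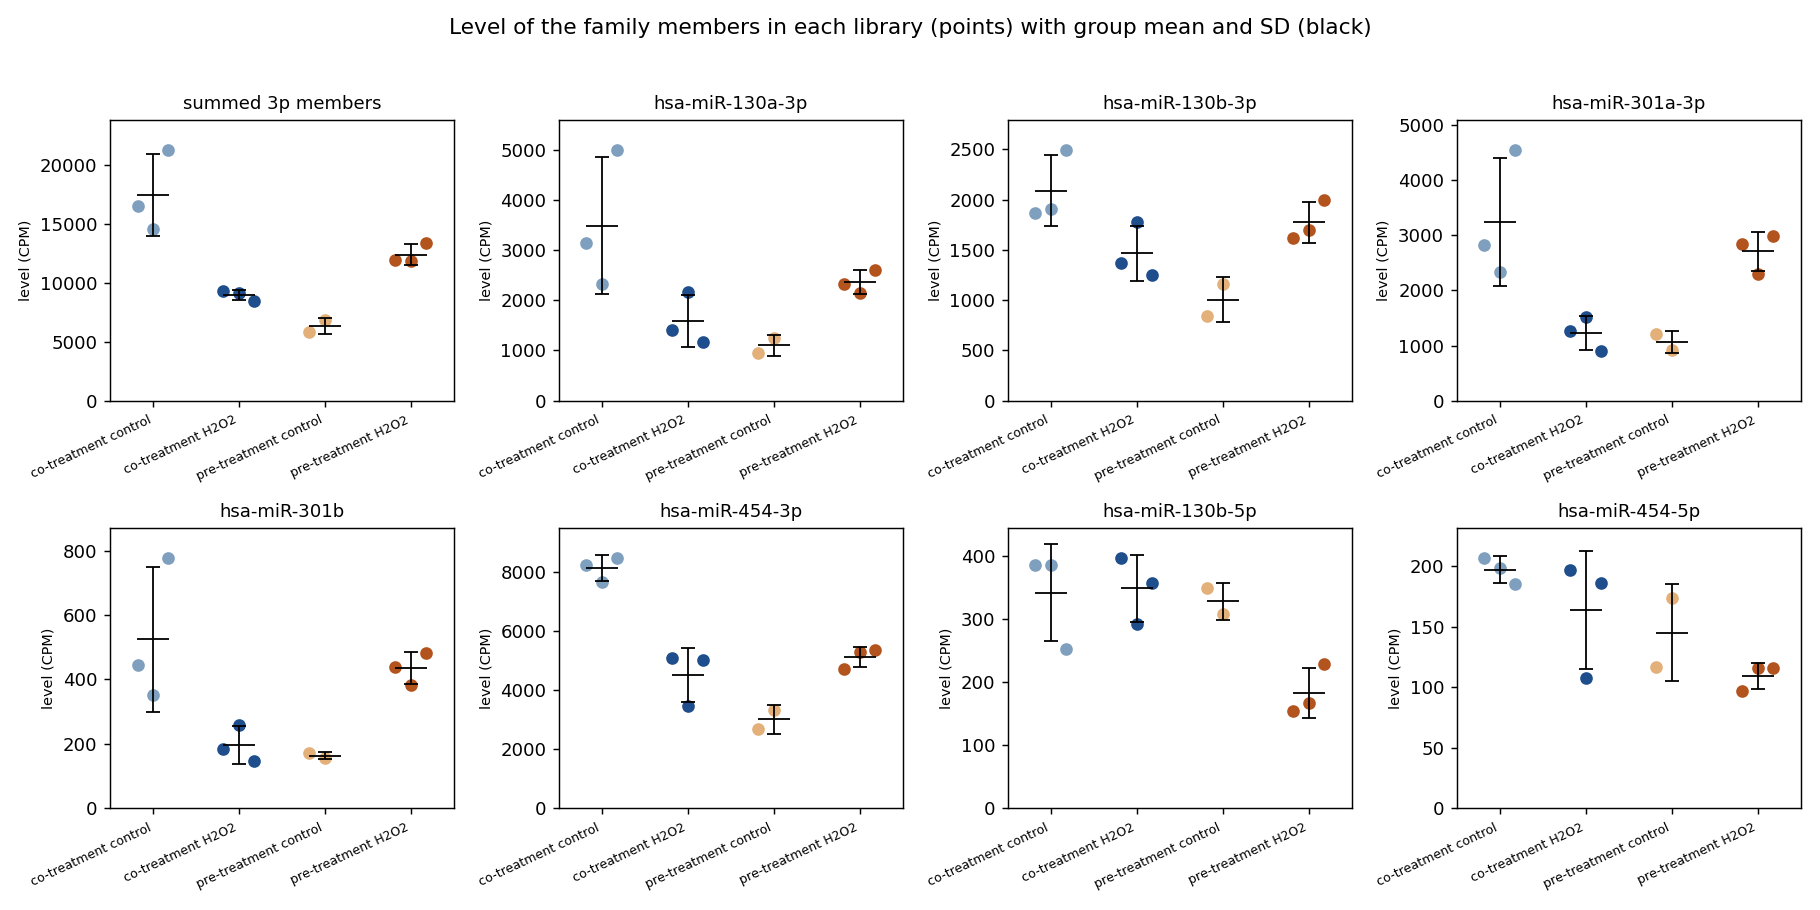
Level of the summed 3p members and of each of the 7 members in CPM (vertical axes from 0, each panel with its own scale) in the 4 groups (horizontal axis), with a point for each library and the group mean and SD in black. The 5 members of the 3p arm follow the summed level, lower with H2O2 in co-treatment and higher in pre-treatment, while hsa-miR-130b-5p and hsa-miR-454-5p do not.

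The response of the 3p arms had opposite signs in the 2 experiments, and that of the 2 members of the 5p arm did not follow it. By the rule used for all miRNAs, a false discovery rate (FDR) below 0.05 in the edgeR exact test and a log2 fold change (log2FC, H2O2 minus control) beyond 0.6 in size, 4 of the 7 members were called lower in co-treatment. These were hsa-miR-130a-3p, hsa-miR-301a-3p, hsa-miR-301b and hsa-miR-454-3p. Of all 790 miRNAs tested, 15.6% were called lower and 10.6% higher. In pre-treatment 3 members were called higher, namely hsa-miR-130a-3p, hsa-miR-301a-3p and hsa-miR-301b, where 5.41% of all 868 miRNAs tested were called higher and 9.91% lower. Since these contrasts chose the members, nothing is read from the shares. The 3 members called in both experiments were called in opposite directions. The paper reports opposite directions for most of the miRNAs that changed in both experiments. The share of all miRNAs with such opposite calls was not taken here.

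The calls rested on few libraries. The count in co-treatment was 2 without control 3, without H2O2 1 or without H2O2 3, and only hsa-miR-301a-3p and hsa-miR-301b were called with every library left out in turn. In pre-treatment no member was called higher without any 1 of the H2O2 libraries, or with the edgeR quasi-likelihood test, while 5 were called without control 2. The values of hsa-miR-130a-3p, hsa-miR-130b-3p, hsa-miR-301a-3p and hsa-miR-301b kept their sign under every alternative run in both experiments. Fewer alternatives were run for hsa-miR-130a-3p, which had no sequence. The sign of hsa-miR-454-3p turned in 1 alternative of co-treatment.

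hsa-miR-454-3p, made from an intron of SKA2, was the most abundant member. Its levels were 8266, 7666 and 8502 CPM in co-treatment controls and 5086, 3470.1 and 5015 CPM with H2O2. In pre-treatment they were 2676 and 3350.4 CPM in controls and 4728, 5312 and 5358 CPM with H2O2. In both experiments the 2 groups were apart, with the controls above in co-treatment and below in pre-treatment. The log2FC was −0.79 ± 0.23 (SE) in co-treatment, −0.53 without H2O2 replicate 2. It was 0.64 ± 0.25 (SE) in pre-treatment. Only in co-treatment did the value count as called.

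hsa-miR-301a-3p, from the same host gene, had the wider spread among controls of co-treatment. It stood at 2813, 2337 and 4540 CPM there and at 1267, 1511 and 902 CPM with H2O2. The levels in pre-treatment were 1207 and 918 CPM in controls against 2834, 2298 and 2979 CPM with H2O2. Again the groups did not overlap, and control 3 was the highest library of co-treatment. The log2FC of −1.33 ± 0.28 (SE), a 2.52-fold lower level, became −0.96 without that control. In pre-treatment the log2FC was 1.22 ± 0.27 (SE), a 2.33-fold higher level, and 1.45 without control 1.

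hsa-miR-301b, the least abundant of the 3p members, differed by similar amounts. Its controls had 443, 352 and 778 CPM and its H2O2 libraries 184, 259 and 145 CPM in co-treatment. In pre-treatment 170 and 157 CPM in controls stood against 439, 383 and 482 CPM with H2O2. No control overlapped with an H2O2 library in either experiment. In co-treatment the log2FC was −1.36 ± 0.31 (SE), and −0.92 without control 3. In pre-treatment it was 1.28 ± 0.27 (SE), and 1.37 without control 1.

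hsa-miR-130a-3p, known from vessel growth and blood cell formation, came second among the members in co-treatment controls. Its levels were 3143, 2331 and 4991 CPM in co-treatment controls and 1418, 2157 and 1160 CPM with H2O2. In pre-treatment they were 952 and 1248 CPM in controls and 2329, 2154 and 2609 CPM with H2O2. The gap between the closest control and H2O2 library of co-treatment, 2331 against 2157 CPM, was small beside the spread within each group. The log2FC was −1.08 ± 0.29 (SE) in co-treatment and −0.69 without control 3, where it was no longer called. In pre-treatment it was 0.97 ± 0.27 (SE), and 0.81 without control 1.

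hsa-miR-130b-3p, whose hairpin neighbours that of miR-301b, differed least among the 3p members of co-treatment and was called in neither experiment. It had 1867, 1906 and 2491 CPM in co-treatment controls and 1366, 1776 and 1251 CPM with H2O2. The pre-treatment controls had 845 and 1160.3 CPM, below the 1617, 1702 and 1998 CPM with H2O2. The groups were apart in both experiments, by a narrow gap in co-treatment. Co-treatment gave a log2FC of −0.46 ± 0.25 (SE). Pre-treatment gave 0.69 ± 0.27 (SE), and 0.50 without control 1.

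Against this, hsa-miR-130b-5p, the other arm of the same hairpin, was lower with H2O2 in pre-treatment. Its pre-treatment levels were 348 and 307 CPM in controls and 153, 167 and 228 CPM with H2O2. Those of co-treatment were 386, 385 and 252 CPM in controls and 397, 291 and 357 CPM with H2O2. The groups were apart in pre-treatment and overlapped in co-treatment. The log2FC was −0.98 ± 0.27 (SE) in pre-treatment, −0.86 without control 1, and 0.08 ± 0.28 (SE) in co-treatment. In pre-treatment the exact test with TMM factors did not call it. DESeq2, scaling by relative log expression, the filter on CPM in all libraries and the fit of all 11 libraries did, as lower. The other alternatives that kept both controls did not.

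hsa-miR-454-5p, the minor arm of MIR454, had the lowest mean level of all members in each of the 4 groups, though not in every library. They were 207, 199 and 185 CPM in co-treatment controls and 197, 108 and 186 CPM with H2O2, with H2O2 replicate 2 apart from the rest. In pre-treatment they were 117 and 174 CPM in controls and 97.3, 116 and 116 CPM with H2O2. Control 1 lay just above the H2O2 libraries there. The log2FC was −0.21 ± 0.29 (SE) in co-treatment, and 0.12 without H2O2 replicate 2. It was −0.54 ± 0.30 (SE) in pre-treatment, −0.77 without control 1 and −0.22 without control 2. hsa-miR-454-5p thus had the same sign in both experiments, and the opposite response for which the family was chosen did not hold for it. For hsa-miR-130b-5p the signs were opposite but reversed from those of the 3p arms, and its co-treatment value of 0.08 ± 0.28 (SE) lay near 0, with −0.03 without control 3.

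Over the 7 members the median log2FC was −0.79 in co-treatment and 0.69 in pre-treatment, beside −0.04 and −0.19 over all miRNAs tested. In co-treatment the control and H2O2 ranges did not overlap, with H2O2 lower, for 5 members, as for 23.9% of all tested miRNAs. In pre-treatment 5 members had H2O2 above the controls without overlap, as 26.6% of all miRNAs did, and 2 had it below, as 20.4% did. These 5 are the 3p members and these 2 the 5p members. Scaling by library size or by relative log expression left the number of members on each side of 0 as it was in both experiments.

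**Figure D2:**
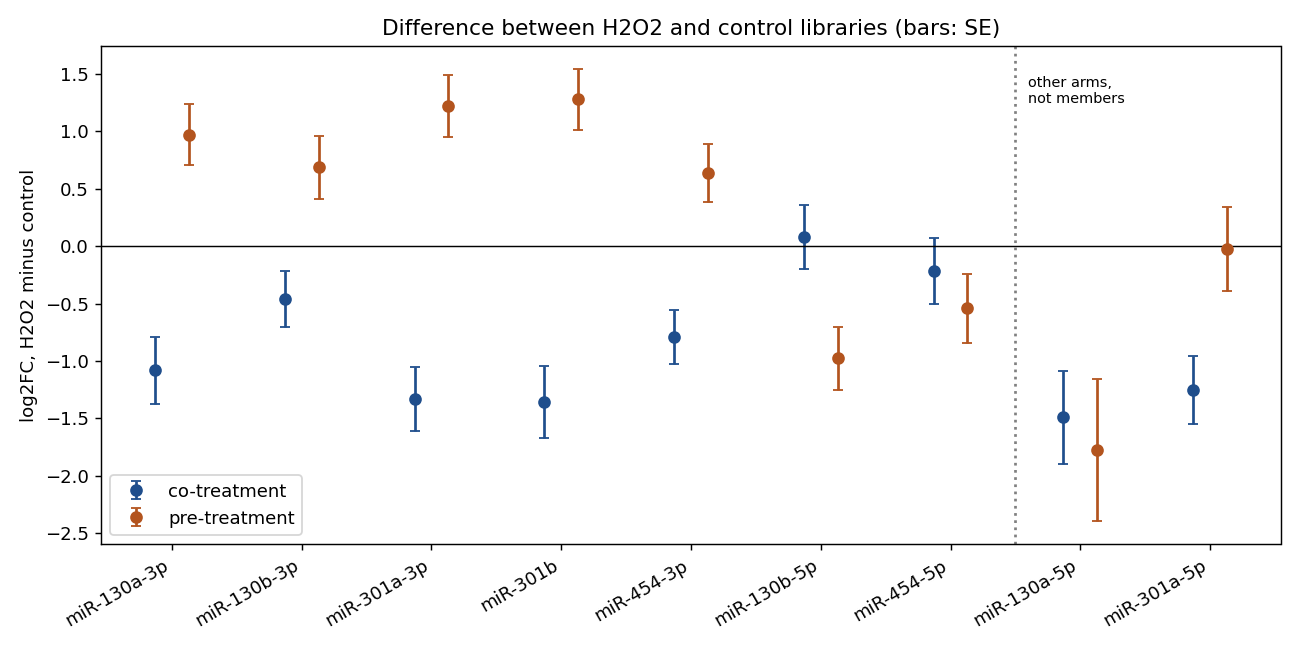
Difference between H2O2 and control libraries as log2FC (vertical axis, bars show the SE of the quasi-likelihood fit) for the 7 members and the other arms of 2 hairpins (horizontal axis), in co-treatment (blue) and pre-treatment (orange). The 5 members of the 3p arm lie below 0 in co-treatment and above 0 in pre-treatment, while no 5p arm lies above 0 by more than its SE in either experiment.

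The other arms of 2 hairpins were counted too and did not serve to choose the family. hsa-miR-301a-5p, the minor arm of MIR301A, fell in co-treatment together with the level of its 3p partner. It had 235, 150 and 304 CPM in controls and 102, 105 and 68.4 CPM with H2O2, without overlap, and log2FC −1.25 ± 0.30 (SE, FDR = 0.00115, edgeR exact test). This call held with each library left out in turn. In pre-treatment it had 66.9 and 129 CPM in controls and 91.3, 101 and 127 CPM with H2O2, which lay between them, and log2FC −0.03 ± 0.37 (SE, FDR = 0.993). The test of the difference between the experiments gave 1.28 ± 0.49 (SE) on the log2 scale with FDR = 0.0623 in the edgeR quasi-likelihood test, where 27.3% of 945 miRNAs passed 0.05. Over 15 alternatives this FDR ran from 0.00642 to 0.286, below 0.05 in 4 of them.

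hsa-miR-130a-5p, the minor arm of MIR130A, was scarce, and 1 library in each experiment set its values. It had 56.8, 19.5 and 107 CPM in co-treatment controls and 22.5, 19.0 and 19.6 CPM with H2O2. The log2FC of −1.49 ± 0.41 (SE, FDR = 0.00361, edgeR exact test) became −0.78 with FDR = 0.149 without control 3. In pre-treatment it had 12.4 and 58.1 CPM in controls and 8.36, 13.5 and 12.3 CPM with H2O2. The log2FC of −1.78 ± 0.62 (SE, FDR = 0.0543) became −0.26 (FDR = 0.504) without control 2, and −2.46 (FDR = 2.26e-17) without control 1, where 1 control library is left. DESeq2 gave FDR = 0.0324, and FDR was 0.0244 with the filter on CPM in all libraries. The test of the difference between the experiments gave −0.19 ± 0.80 (SE, FDR = 0.877, edgeR quasi-likelihood test). hsa-miR-301b-5p was not analysed here.

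The share of the 3p arm among the counts of both arms puts the arms of a hairpin side by side within a library, where scaling has no part. All 4 hairpins with both arms counted gave mostly 3p reads, and in pre-treatment all 4 had a higher 3p share with H2O2 than in controls, without overlap. Of all 226 hairpins with both arms tested in pre-treatment, 20.4% had this. Since these counts also chose the members, the shares carry no test, and 2 against 3 libraries could not give a p-value below 0.2. The 95% Wilson intervals were at most 0.931 percentage points to either side, for counting error only.

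The widest difference was in MIR130B. Its 3p share was 70.8% and 79.1% in pre-treatment controls against 91.3%, 91.1% and 89.8% with H2O2, a mean of 74.9% ± 5.85 (SD, n = 2) against 90.7% ± 0.844 (SD, n = 3). In co-treatment it was 82.9%, 83.2% and 90.8% in controls and 77.5%, 85.9% and 77.8% with H2O2. The co-treatment groups overlapped. In pre-treatment the 3p count thus took a larger part while the 5p count took a smaller one, as the CPM of the arms above also show.

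In MIR454 the 3p share ran against the direction of pre-treatment in co-treatment, by small amounts. It was 97.6%, 97.5% and 97.9% in co-treatment controls and 96.3%, 97.0% and 96.4% with H2O2, without overlap. It was 95.8% and 95.1% in pre-treatment controls and 98.0%, 97.9% and 97.9% with H2O2. MIR454 was the only 1 of 4 hairpins whose groups were apart in both experiments. In co-treatment the groups were apart in 30.5% of 203 hairpins with both arms tested, and with H2O2 lower in 15.8%. In MIR301A the share was 94.7% and 87.7% in pre-treatment controls and 96.9%, 95.8% and 95.9% with H2O2. In co-treatment it lay between 92.3% and 94.0% in controls and between 92.6% and 93.5% with H2O2. In MIR130A it was 98.7% and 95.6% in pre-treatment controls and between 99.4% and 99.6% with H2O2. It lay between 97.9% and 99.2% in every co-treatment library.

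**Figure D3:**
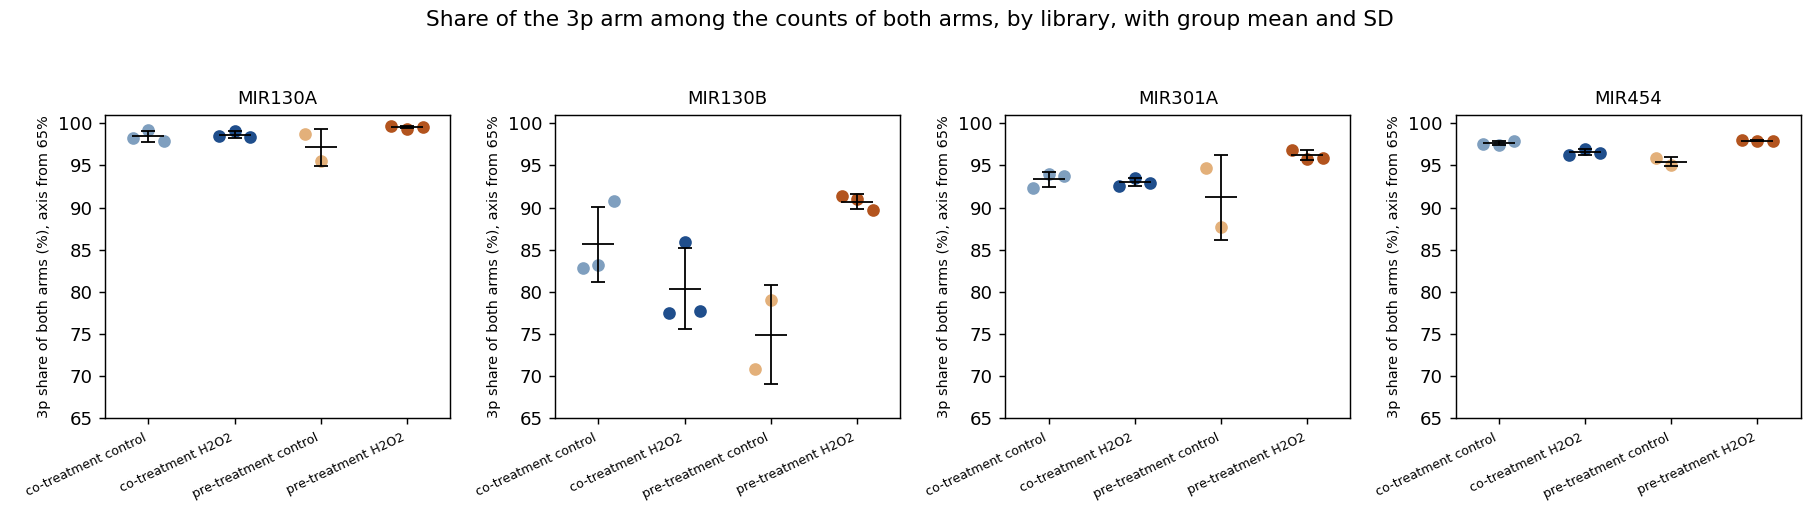
Share of the 3p arm among the counts of both arms in percent (vertical axes from 65%) for 4 hairpins in the 4 groups (horizontal axis), with a point for each library and the group mean and SD in black. In pre-treatment the H2O2 points lie above both control points in all 4 hairpins, most widely in MIR130B, at 90.7% against 74.9% in the mean.

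Within the summed counts of the 3p members, hsa-miR-454-3p held 37.8% to 59.2% in every library and hsa-miR-301b 1.71% to 3.68%. Counts of different miRNAs also reflect how readily each sequence enters a library, so these shares describe counts. With H2O2 in co-treatment, the share of hsa-miR-130b-3p was 14.7%, 19.4% and 14.8%, above the 11.3%, 13.1% and 11.7% of controls. That was the only 1 of the 5 members whose share did not overlap between the co-treatment groups. In H2O2 replicate 2 of co-treatment hsa-miR-454-3p held 37.8%, against 54.6% and 59.2% in the other libraries of its group. In pre-treatment the share of hsa-miR-454-3p was 45.7% and 49.0% in controls and 39.6%, 44.8% and 39.9% with H2O2. The share of hsa-miR-301b was 2.91% and 2.29% in controls and 3.68%, 3.24% and 3.59% with H2O2. That of hsa-miR-301a-3p was 20.6% and 13.4% in controls and 23.7%, 19.4% and 22.2% with H2O2, with overlap. The family counts of pre-treatment H2O2 libraries thus held less hsa-miR-454-3p and more hsa-miR-301b than their controls, 2 of the 5 shares. For hsa-miR-454-3p the closest libraries stood at 45.7% and 44.8%. The shares carry no test, and 2 against 3 libraries could not give a p-value below 0.2. The split between hsa-miR-301a-3p and hsa-miR-301b is uncertain, as said above.

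**Figure D4:**
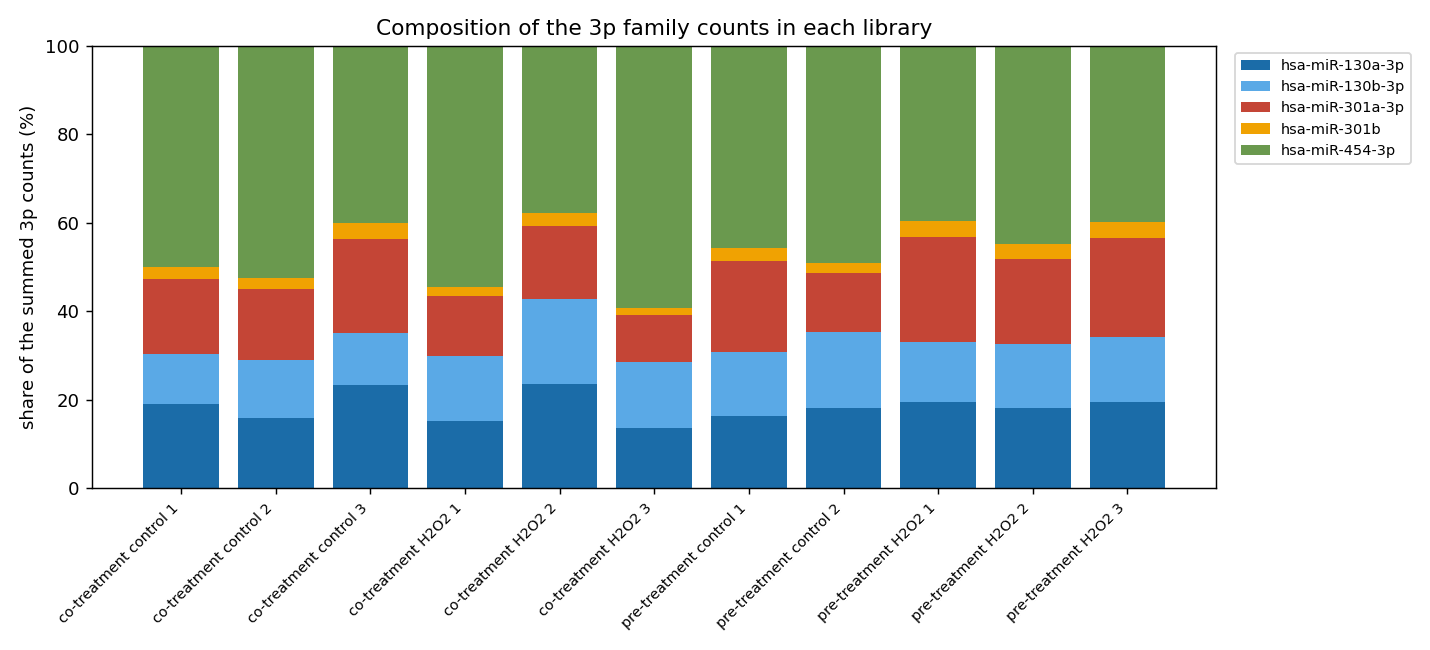
Share of each of the 5 members of the 3p arm among their summed counts, in percent (vertical axis, stacked bars), for each of the 11 libraries (horizontal axis). hsa-miR-454-3p is the largest part in every library, between 37.8% and 59.2%, and is smallest in H2O2 replicate 2 of co-treatment.

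The members are poor in G and C, and the libraries differed in how their counts ran with GC content. The median GC content was 40.0% over the 6 members with a sequence, from 34.8% in hsa-miR-454-3p to 47.6% in hsa-miR-130b-5p, beside 50.0% over the 701 tested miRNAs with a sequence in co-treatment. For each library, a smooth trend of its log2 level against GC content, relative to the mean of the experiment, was taken at the GC content of each member. At that of hsa-miR-454-3p it stood at 0.43, 0.28 and 0.49 in co-treatment controls and at −0.28, −0.43 and −0.40 with H2O2. In pre-treatment it stood at −0.63 and 0.02 in controls and at 0.16, 0.20 and 0.28 with H2O2. At this GC content the trend was higher in controls than with H2O2 in co-treatment, and lower in controls in pre-treatment. At that of hsa-miR-130b-3p, pre-treatment control 2 stood at 0.20, above the 0.06 to 0.12 of the H2O2 libraries.

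With the trend of each library removed by an offset, the differences shrank for the 3p members and grew for the 5p members of pre-treatment. In the same quasi-likelihood fit, the log2FC of hsa-miR-454-3p went from −0.79 to −0.03 in co-treatment and from 0.64 to 0.12 in pre-treatment. That of hsa-miR-301a-3p went from −1.33 to −0.74 and from 1.22 to 0.75. That of hsa-miR-301b went from −1.36 to −0.76 and from 1.28 to 0.84. For hsa-miR-130b-3p the values were −0.46 and −0.24 in co-treatment, and 0.69 and 0.53 in pre-treatment. hsa-miR-130b-5p had −1.07 in place of −0.98 in pre-treatment, and hsa-miR-454-5p −0.85 in place of −0.54. In co-treatment hsa-miR-454-5p turned from −0.21 to 0.29. No member with a sequence was called after this correction in either experiment. Without it, the same fit called 3 members lower in co-treatment and 0 either way in pre-treatment, so the correction removed calls in co-treatment only. Over all miRNAs, 48 in place of 154 were called in the co-treatment fit and 2 in place of 12 in that of pre-treatment. hsa-miR-301a-5p had −0.75 with FDR = 0.0964 in co-treatment after the correction, and hsa-miR-130a-5p −0.97 with FDR = 0.139. hsa-miR-130a-3p had no place in these fits. The trend is drawn from miRNAs that may themselves respond to H2O2, and which part of it arose in library preparation was not tested.

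**Figure D5:**
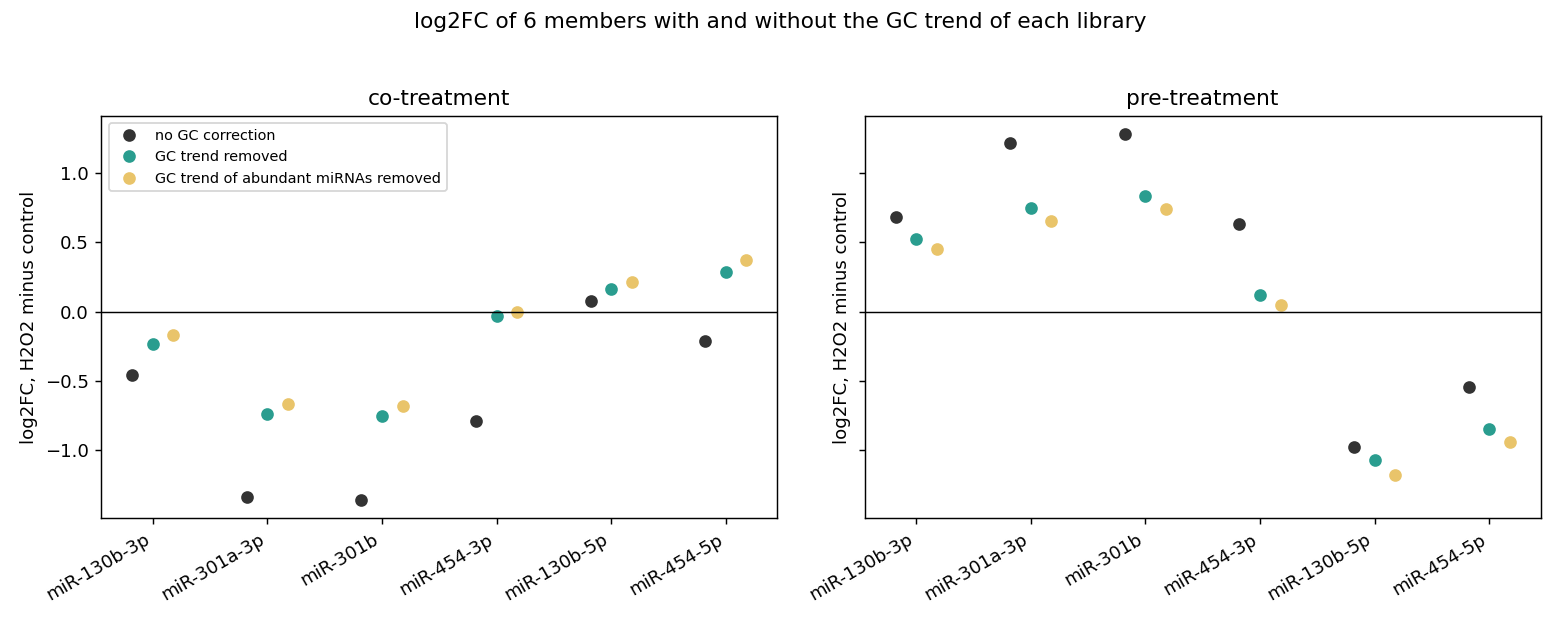
log2FC between H2O2 and control libraries (vertical axis) of the 6 members with a sequence (horizontal axis) in co-treatment (left) and pre-treatment (right), without a correction for GC content (black), with the GC trend of each library removed (green) and with the trend of abundant miRNAs removed (yellow). hsa-miR-454-3p moves from −0.79 to −0.03 in co-treatment with the trend removed, hsa-miR-301a-3p from −1.33 to −0.74 and hsa-miR-301b from −1.36 to −0.76. None of the 6 is called with the trend removed, and in pre-treatment none is called in the same fit without the correction either.

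miRNAs with a related seed gave a view outside the members. The list took miRNAs whose bases 1 to 9 hold AGUGCA or GUGCAA, the first or last 6 bases of the family seed, and counted 11 in the files, of which 5 were tested in co-treatment and 6 in pre-treatment. In co-treatment 3 of the 5 were called lower, where 15.6% of all tested miRNAs were, and none higher, against 10.6%. Their median log2FC was −1.10 beside −0.04 over all tested miRNAs. In pre-treatment the exact test called none of 6, as did the quasi-likelihood test and DESeq2. At an unadjusted p under 0.05 there were 2, as for 28.6% of all tested miRNAs, and the median log2FC was 0.79 beside −0.19. The lists were chosen with results of these data known, and the medians describe these libraries.

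hsa-miR-19a-3p, an oncogenic miRNA of the miR-17-92 cluster, had the largest difference of these in co-treatment. Its level was 7164 ± 3021 CPM (SD, n = 3) in co-treatment controls and 1811 ± 454 CPM (SD, n = 3) with H2O2. The log2FC was −1.92 ± 0.29 (SE, FDR = 1.71e-06, edgeR exact test), and −1.12 with FDR = 0.0306 after the GC trend was removed in the quasi-likelihood fit. hsa-miR-19b-3p fell too, from 125 ± 42.7 to 39.1 ± 6.97 CPM (SD, n = 3 each), with log2FC −1.61 ± 0.29 (SE, FDR = 1.58e-05). After removal of the GC trend it had −1.01 with FDR = 0.041. In pre-treatment the log2FC of the pair was 0.76 (FDR = 0.221) and 0.83 (FDR = 0.212) in the exact test. The difference between the experiments passed its test for both, at 2.73 ± 0.49 (SE, FDR = 0.00221) and 2.49 ± 0.47 (SE, FDR = 0.00261) in the edgeR quasi-likelihood test. In pre-treatment controls the pair had mean levels of 1411 and 24.1 CPM, so the controls of the 2 experiments differed as well.

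Of the miR-148 and miR-152 family, whose seed overlaps that of the members by 6 bases, hsa-miR-148a-3p fell in co-treatment, from 3800 ± 1249 to 1698 ± 354 CPM (SD, n = 3 each). The log2FC was −1.10 ± 0.26 (SE, FDR = 0.00223, edgeR exact test). With 1 library left out the FDR reached 0.0561, and after removal of the GC trend the log2FC was −0.59 with FDR = 0.147. In pre-treatment its log2FC was 0.84 ± 0.31 (SE, FDR = 0.134), and the difference between the experiments was 1.99 ± 0.42 (SE, FDR = 0.00436). hsa-miR-152-3p had log2FC −0.43 (FDR = 0.224) and 0.82 (FDR = 0.124), with a difference between the experiments of 1.28 ± 0.36 (SE, FDR = 0.018). hsa-miR-148b-3p had −0.24 (FDR = 0.534) and 0.29 (FDR = 0.706), and its difference of 0.56 ± 0.40 (SE, FDR = 0.314) did not pass. The tests of difference were those of the quasi-likelihood fit of edgeR.

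By the profile over the 11 libraries, the miRNAs most like the summed 3p members were hsa-miR-140-5p, hsa-miR-15a-5p, hsa-miR-7-1-3p, hsa-miR-338-3p and hsa-miR-148a-3p, out of 396 with a mean of at least 10 CPM outside the family. Likeness was the root mean square difference of the log2 CPM, each profile centred on its mean. It was 0.18, 0.19, 0.21, 0.22 and 0.22 in this order, against a median of 0.63 over the 396. Scaling by library size gave the same 5 miRNAs. Their log2FC lay between −1.29 and −0.52 in co-treatment and between 0.73 and 1.05 in pre-treatment. Signs like those of the family largely follow from the choice by profile, so nothing is read from them. Of these 5 miRNAs only hsa-miR-148a-3p holds 6 bases of the family seed, and the libraries that all profiles share were the same 11.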

How the data were processed

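Small RNA libraries of 11 SH-SY5Y cultures (QIAseq kit, Illumina) were used as raw read counts per mature miRNA, deposited by the authors in a table for each experiment. Per the labels and the study's methods, cutadapt (2.10) removed adapters, Bowtie2 (2.4.1) mapped reads to hg19 and HTSeq (0.7.2) counted them. The treatment of molecular identifiers and of reads matching several miRNAs is not given in the sources used here. The deposited tables of differential expression hold the authors' fold changes and p-values and were not used. The members and all lists were chosen with earlier results of these data known.

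Each experiment was tested with the exact test of edgeR (4.0.16), as in the study's methods, with TMM factors, on miRNAs above the CPM of 5 counts in the smallest library (0.936 CPM in at least 3 libraries of co-treatment, 0.721 CPM in at least 2 of pre-treatment), with Benjamini-Hochberg adjustment over all tested miRNAs. SEs are from the quasi-likelihood fit. The difference in response between experiments was the interaction term of a quasi-likelihood fit of all 11 libraries, reported for non-members. Levels are CPM with TMM factors over 11 libraries. Exact permutation tests were set for arm and family shares, but no p-value is given since the same counts chose the members (the smallest possible are 0.1 for 3 against 3 and 0.2 for 2 against 3). The family seed was read from hsa-miR-130b-3p. The trend on GC content was a lowess curve (span 0.5) over tested miRNAs with a RefSeq sequence (88.7% in co-treatment, 88.6% in pre-treatment). Named were the members, other arms, related seeds and the 5 miRNAs with the most similar profile. Alternatives were DESeq2 (1.42.0), other scalings, filters and samples, a replicate block and the GC trend. The scripts were tested on simulated counts. Replicates of a group differed by far more than sampling noise (chi-square per degree of freedom at least 29.9). R 4.3.3 and Python 3.11.15 were used.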

Additional observations from a re-analysis of the deposited data

Results flagged for a closer look

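In 5 members every H2O2 library lay below the controls in co-treatment and above them in pre-treatment. Of all tested miRNAs, 23.9% had the first and 26.6% the second. The share with both was not taken and does not follow from these shares, so nothing is read from the count. The log2FC of pre-treatment minus that of co-treatment, from the fit of all 11 libraries, was 2.09 for hsa-miR-130a-3p, 1.18 for hsa-miR-130b-3p, 2.58 for hsa-miR-301a-3p, 2.67 for hsa-miR-301b and 1.45 for hsa-miR-454-3p. These differences were not tested, because the members were chosen for them.

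Of 6 tested miRNAs with a related seed, 4 had a response that differed between the experiments in the edgeR quasi-likelihood test of the interaction, which 27.3% of all 945 miRNAs passed. The difference was 2.73 (FDR = 0.00221) for hsa-miR-19a-3p, 2.49 (FDR = 0.00261) for hsa-miR-19b-3p, 1.99 (FDR = 0.00436) for hsa-miR-148a-3p and 1.28 (FDR = 0.018) for hsa-miR-152-3p. It did not pass for hsa-miR-148b-3p (0.56, FDR = 0.314) and hsa-miR-4671-3p (0.75, FDR = 0.728), a scarce miRNA with at most 11 counts. All 15 alternatives kept FDR below 0.05 for the first 3, with a highest FDR of 0.0164, 0.0194 and 0.0289. For hsa-miR-152-3p 12 of 15 did, and FDR reached 0.0912 without pre-treatment control 1. In both experiments the groups of these 4 miRNAs did not overlap, with H2O2 lower in co-treatment and higher in pre-treatment. Of all tested miRNAs, 23.9% were apart in the first way and 26.6% in the second, and the share with both was not taken. The same counts gave the interaction test, so this separation is no further evidence. The interaction was not refitted with the GC trend removed. Control levels in co-treatment and pre-treatment were 7164 and 1411 CPM for hsa-miR-19a-3p and 125 and 24.1 CPM for hsa-miR-19b-3p. They were 3800 and 1500 CPM for hsa-miR-148a-3p and 4983 and 3122 CPM for hsa-miR-152-3p. With H2O2 the levels were, in this order, 1811 and 2631, 39.1 and 47.3, 1698 and 2961, and 3577 and 6040 CPM. The part of the gap between controls, which had no H2O2, in the interaction was not tested.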

How the results depend on the processing

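In co-treatment 207 miRNAs were called, with 98 to 279 when 1 library was left out, 111 with a replicate block, 84 in a fit of all 11 libraries, and 48 or 47 with the GC trend of all or of abundant miRNAs removed. Members called lower were 4, with 2 to 4 when 1 library was left out and 0 with either GC trend removed. In pre-treatment 133 were called, with 9 to 449 when 1 library was left out, 17 with the quasi-likelihood test, 15 with a replicate block, 61 without a low-count filter, 12 in the quasi-likelihood fit of miRNAs with a sequence, and 2 or 15 with the GC trend of all or of abundant miRNAs removed. Members called higher were 3, with 0 to 5 when 1 library was left out and 0 with the quasi-likelihood test, the replicate block, the fit of miRNAs with a sequence or either GC trend removed. The response of 258 miRNAs differed between the experiments, with 164 to 444 when 1 library was left out and 115 with a replicate block. The fits of abundant miRNAs and of miRNAs with a sequence were chosen after seeing the data. Same-numbered libraries did not deviate together in every pair (r from −0.18 to 0.04 in co-treatment, 0.25 and −0.04 in pre-treatment). With 2 controls in pre-treatment, their deviations mirror each other, so r cannot show there whether libraries were paired. The replicate block matched libraries by number alone.

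The count of hairpins whose 3p share did not overlap between co-treatment groups was 1, and 1 to 2 when 1 library was left out. It was 4 in pre-treatment in each case. The count of 3p members whose share of the family did not overlap was 1 in co-treatment (1 to 5 when 1 library was left out, 5 without H2O2 replicate 2) and 2 in pre-treatment (2 to 4). Among members, signs turned for hsa-miR-130b-5p in co-treatment, at −0.03 and −0.0022 without control replicate 3 and H2O2 replicate 1, for hsa-miR-454-5p, at 0.29 or 0.37 with either GC trend removed and 0.12 without H2O2 replicate 2, and for hsa-miR-454-3p in co-treatment, at 6.16e-05 with the GC trend of abundant miRNAs removed. For hsa-miR-301a-5p in pre-treatment, which was not called, the log2FC was 0.050 with library-size scaling, 0.12 without a filter, −0.39 to 0.53 when 1 library was left out (0.53 without control replicate 2, 0.10 and 0.067 without H2O2 replicates 1 and 2), and 0.035 in the fit of all 11 libraries. The difference between experiments of hsa-miR-130a-5p ran from −1.15 to 1.26 when 1 library was left out, at 0.23 without co-treatment control replicate 2 and 1.26 without pre-treatment control replicate 2. The cause of these changes was not tested. Leaving out a pre-treatment control left 1 library, assumed to vary like the others.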
